A study of Mus musculus with 34 samples.

Results

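Cultured embryonic fibroblasts were set against freshly sorted somatic cells of the embryonic gonad and mesonephros, over every probe set with a single gene symbol. The comparison used 10 of the 34 samples of the series, which profiled mouse pluripotent cells, germ cells and somatic cells on Affymetrix expression arrays. The fibroblasts (MEF, 6 arrays) were labelled as embryonic fibroblasts of E13.5, at passage 2 and grown in serum. The gonad soma (SGM, 4 arrays) was labelled as somatic cells of the gonad and mesonephros of E11.5, sorted by flow cytometry for absence of the Oct4/GFP reporter that marks germ cells. Both groups were of strain C57Bl/6 and of mixed sex, and the labels number the samples as biological replicates without saying whether embryos were pooled. Tissue, stage, culture in serum and sorting all changed together between the groups, so their parts in any difference below cannot be told apart. As these are bulk samples, fewer cells of a type and less RNA per cell cannot be told apart either.

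Embryonic fibroblasts are mesenchymal cells that spread and proliferate on plastic in serum. On a stiff surface such cells are known to build stress fibres, to activate the transcription factor SRF and the cofactor YAP, and to secrete collagen, and over the first passages they are known to accumulate inhibitors of the cell cycle. The E11.5 gonad is a ridge of coelomic epithelium and mesenchyme lying along the mesonephros, a transient kidney with epithelial ducts. It divides fast, carries the transcription factors Wt1 and Nr5a1 from which both ovary and testis develop, and holds blood vessels with circulating primitive red cells. The sort removed reporter-positive germ cells only, so blood, endothelium and mesonephric epithelium remained possible parts of SGM.

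Values are log2 units of signal per probe set, a difference is MEF minus SGM, and calls are those with an adjusted p below 0.05 (limma, Benjamini-Hochberg over 10833 probe sets, two-sided). Of these probe sets 4989 were called, which is 46.1% (2263 higher and 2726 lower in MEF). With each array centred on its median the split turned, with 2718 higher and 2217 lower. Each of the 8251 genes took the value of whichever of its probe sets had the highest mean in these 10 samples. Of them 1827 were called higher (22.1%) and 2235 lower (27.1%), and 687 (8.33%) and 534 (6.47%) of all genes were called with at least a 2-fold difference. In 1531 of the called genes every MEF array lay above every SGM array (18.6% of all genes), and in 1750 every MEF array lay below (21.2%). The median difference over all genes was -0.05. Differences of at least 8-fold were more often rises as deposited, with 66 genes higher in MEF and 22 lower. The largest of all were falls of globins. Bright genes are among the 66, and quantile normalization reduced their differences, as given below. Correlations between arrays over all single-symbol probe sets ran from 0.990 to 0.996 within MEF and from 0.983 to 0.995 within SGM, against 0.910 to 0.930 between MEF and SGM arrays.

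**Figure D1:**
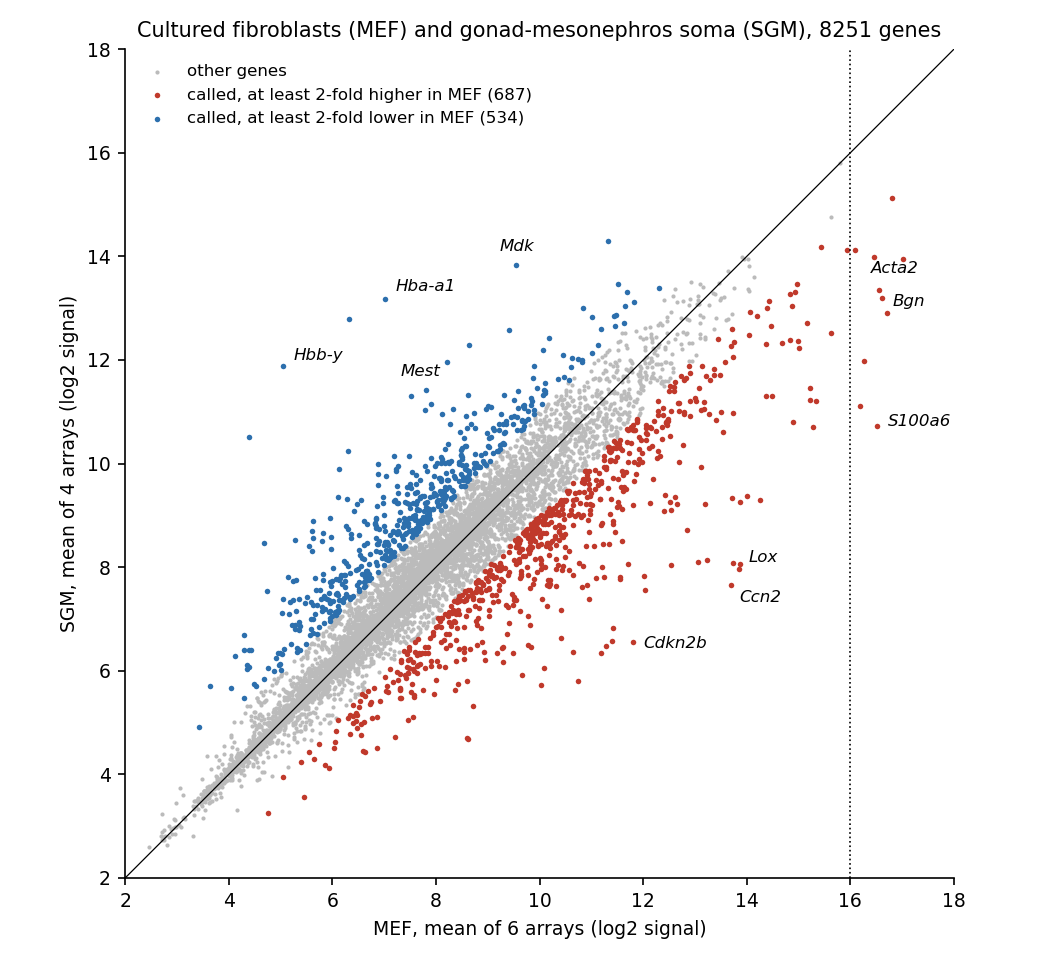
Mean log2 signal of each of 8251 genes over the 6 MEF arrays (horizontal axis) and the 4 SGM arrays (vertical axis), with the line of equality. Red points are called and at least 2-fold higher in MEF (687 genes), blue points called and at least 2-fold lower (534 genes), and the dotted line marks a log2 value of 16, which MEF means pass and SGM means do not.

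Probe sets above 16, the highest log2 value that a 16-bit scanner can give, were found on the MEF arrays and on no other array of the series. Each MEF array had 11 to 13 of them, 13 in all, and the array maxima were 17.26 to 17.71 in MEF, against 15.67 to 15.92 in SGM. Their single-symbol members were Acta2, Anxa1, App, B2m, Bgn, Col1a2, Col5a2, Cpe, Emp1, Fbln2 and S100a6. These include matrix proteins (Fbln2, Col1a2, Col5a2 and Bgn), the smooth muscle actin Acta2, the calcium-binding proteins S100a6 and Anxa1 and the light chain of MHC class I, B2m. Medians of the arrays were alike (7.20 in MEF and 7.28 in SGM), but the 99.9th percentile was 15.87 in MEF, against 13.93 in SGM and 13.67 to 13.92 in the 8 other groups. How values above 16 arose is not given in the sources used here and was not tested.

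Quantile normalization, which gives all arrays 1 shared distribution, reduced the differences of bright genes. For the 21 genes with a MEF mean over 15, the median difference was 3.12 as deposited and 1.32 after it, and 20 as deposited and 14 after it were called higher. The difference of Acta2 was 3.21 as deposited and 1.05 after it. That of Bgn was 3.40 and 1.32, that of S100a6 5.79 and 3.73, that of Anxa1 5.07 and 3.20, that of Col5a2 3.80 and 1.74, and that of the membrane protein Emp1 3.07 and 0.67. Calls ended for B2m (2.47 as deposited and 0.32 after it), for App, the amyloid precursor protein (1.67 and -0.21), for the carboxypeptidase Cpe (1.82 and -0.13) and for Col1a2 (1.97 and -0.13). The median over the 4763 genes with a MEF mean up to 8 hardly moved (-0.08 as deposited and -0.02 after it). Their calls did move, with 494 called higher as deposited and 626 after it. Differences of genes with a MEF level over about 13 are sizes on the deposited scale, and the value after quantile normalization is given below where the call ended or the fold moved by over 1.5 times.

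**Figure D2:**
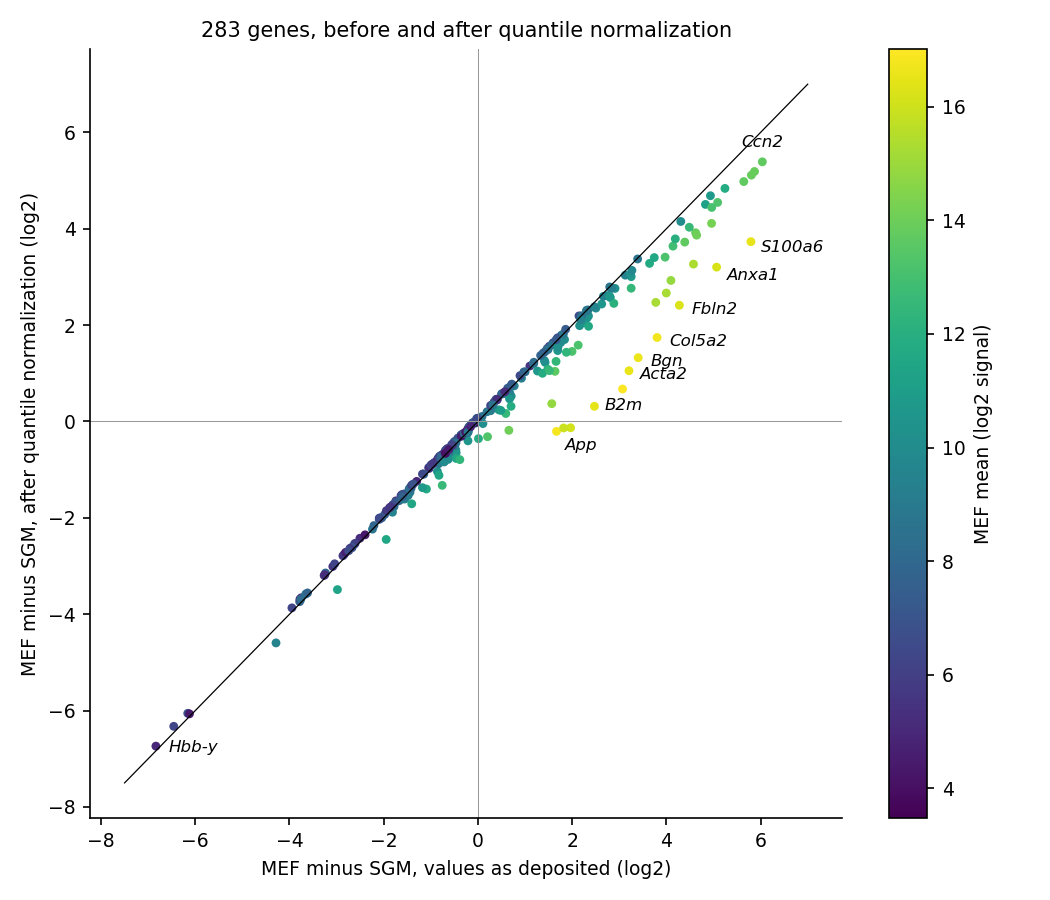
Difference between MEF and SGM as deposited (horizontal axis) and after quantile normalization (vertical axis), both in log2 units, for 283 genes, coloured by their MEF mean. Dim genes lie near the line of equality, whereas bright ones such as S100a6 (5.79 and 3.73), Bgn (3.40 and 1.32) and App (1.67 and -0.21) fall below it.

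The labels were checked against marker genes of each cell type. Over all genes, 22.1% were called higher and 27.1% lower. Of 14 fibroblast markers, 9 were higher in MEF and none lower, or 6 higher and 1 lower after quantile normalization, which ended the calls of Col1a2, Col3a1 and Dcn and called Pdgfra lower. The mean over the list was 10.68 to 10.87 on the MEF arrays, against 9.40 to 9.79 on the SGM arrays. S100a4, a calcium-binding protein named for fibroblasts, stood at 12.69 to 13.58 on the MEF arrays (median 13.09), against 8.16, 7.99, 8.16 and 8.06 on the SGM arrays. Thy1, a surface glycoprotein of fibroblasts, stood at 12.94 to 13.49 on the MEF arrays (median 13.20), against 9.38, 8.81, 9.14 and 9.56 on the SGM arrays, a difference of 3.97 ± 0.13 (3.41 after quantile normalization). The groups did not overlap in either gene. The mesenchymal markers Twist1 (0.11 ± 0.15) and Vim (-0.01 ± 0.08) passed no test. Pdgfra, a PDGF receptor of mesenchyme, was at -0.46 ± 0.20 (limma, adjusted p = 0.0585) as deposited and at -0.65 (adjusted p = 0.00596) after quantile normalization. Fap was at -0.17 ± 0.18 and not called, but at -0.59 and called lower without SGM replicates 1 and 4. The Vim probe set read 6.49 ± 0.17 in MEF and 6.50 ± 0.08 in SGM (mean ± SD, n = 6 and 4), which is within the group means of 19 bacterial and yeast control probe sets (3.30 to 6.69 in MEF and 3.33 to 6.77 in SGM). The files hold no detection calls. Of 199 called genes named here, 69 have the mean of 1 or both groups at or under the highest of these controls in that group, and 14 have both. For them a difference is that of the measured signals, and the lower level is not shown to lie above background. The 14 with both are Cdh5, Cldn7, Dppa5a, Eif2s3y, Epcam, Ifitm1, Irf3, Kit, Lhx9, Meis2, Meox2, Mrc1, Vegfa and Wnt11. Col3a1, Dcn, Lum and Twist1 were highest in MEF and next highest in SGM among the 10 groups of the series.

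Of 8 measured gonad soma markers 6 were lower in MEF, Gata4 (-0.21 ± 0.09) and its cofactor Zfpm2 (-0.15 ± 0.08) being the exceptions. Both passed the test with array weights, Gata4 at -0.21 and Zfpm2 at -0.17. Of 5 mesonephric markers Cdh16 and Pax8 were lower. All 6 erythroid markers were lower in MEF, with list means of 6.54 to 6.74 on the MEF arrays, against 10.58 to 11.39 on the SGM arrays. Endothelial markers were lower in 4 of 6 (6.32 to 6.51 in MEF, against 7.03 to 7.20 in SGM) and epithelial markers in 3 of 4 (6.33 to 6.55 in MEF, against 7.96 to 8.55 in SGM). Macrophage markers were higher in 2 and lower in 2 of 7, or higher in 1 and lower in none without SGM replicates 1 and 4. Germ cell markers were lower in 2 of 6, Kit and Dppa5a, while Pou5f1, whose reporter was used in the sort, passed no test (6.18 ± 0.12 in MEF and 6.21 ± 0.12 in SGM). Skeletal muscle markers were higher in 1 and lower in 1 of 7, and neural markers higher in 1 and lower in 2 of 5. Without SGM replicates 1 and 4 the falls were 2 and 1 in these lists.

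**Figure D3:**
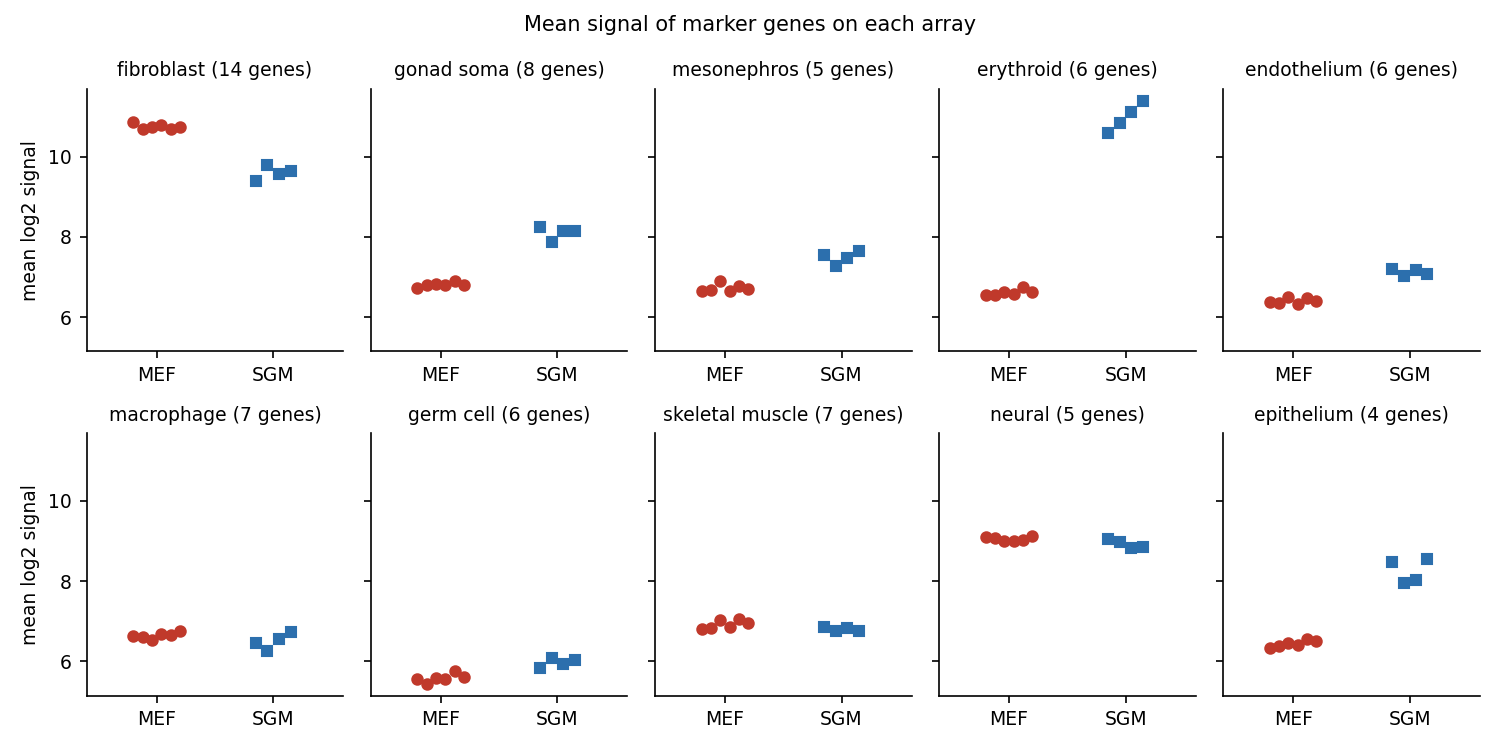
Mean log2 signal of the measured marker genes of 10 cell types on each of the 6 MEF arrays (red circles) and 4 SGM arrays (blue squares). The erythroid panel has the widest gap (6.54 to 6.74 in MEF, against 10.58 to 11.39 in SGM), and the groups overlap in the macrophage, skeletal muscle and neural panels.

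The 12 largest rises in MEF included matrix proteins, chemokines, calcium-binding proteins and an inhibitor of the cell cycle. Ccn2 (connective tissue growth factor, a secreted matricellular protein and a target of YAP and SRF) stood at 13.33 to 13.96 on the MEF arrays (median 13.70), against 7.44, 7.71, 7.58 and 7.87 on the SGM arrays. That is 65.7-fold higher (log2 difference 6.04 ± 0.16, SE, and 5.39 after quantile normalization), and the groups did not overlap. Lox, the copper enzyme that cross-links collagen and elastin, stood at 13.70 to 13.98 on the MEF arrays (median 13.84), against 7.88, 7.94, 8.12 and 7.95 on the SGM arrays. Its difference was 5.87 ± 0.09 (5.19 after quantile normalization). Osmr, the receptor subunit for oncostatin M, stood at 13.54 to 14.17 on the MEF arrays (median 13.89), against 7.90, 8.25, 8.03 and 8.09 on the SGM arrays, a difference of 5.80 ± 0.11 (5.11 after quantile normalization). The others of the 12 largest rises were S100a6, Anxa1 and S100a4, the chemokines Ccl7 and Ccl2, the kinase inhibitor Cdkn2b, the caveolar protein Cavin2 (4.11 after quantile normalization), the interferon-inducible Ifi202b and the collagen Col8a1, with differences from 4.83 to 5.79. MEF was the highest of the 10 groups of the series in 12 of 12. Ifi202b belongs to a family of near-identical genes, so its probe set may read relatives as well.

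**Figure D4:**
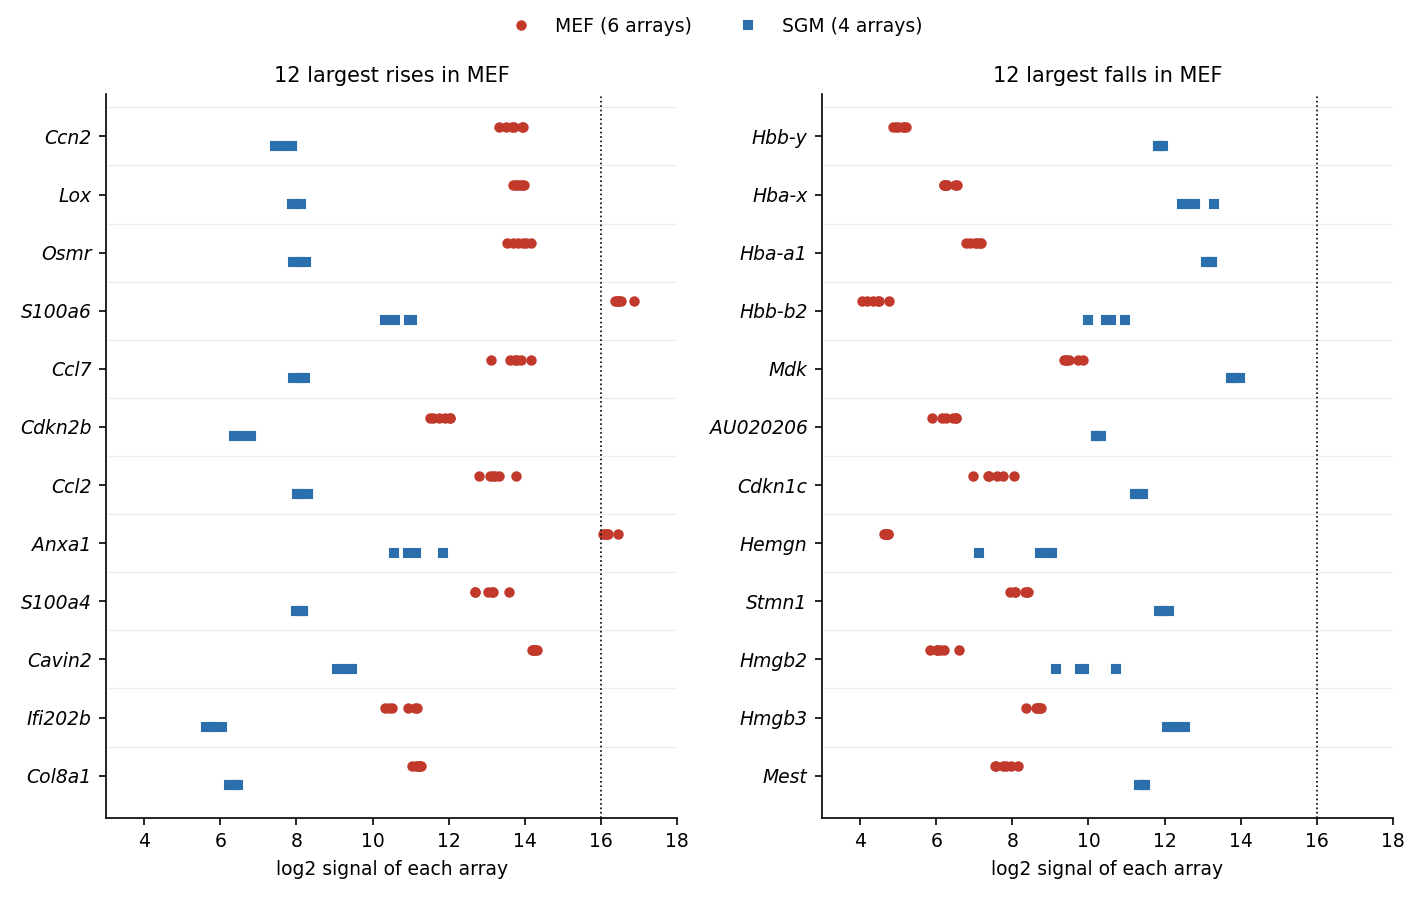
Log2 signal on each MEF array (red circles, upper row of each gene) and SGM array (blue squares, lower row) for the 12 largest rises (left) and the 12 largest falls (right) among called genes whose groups do not overlap. The dotted line marks a log2 value of 16; the largest rise is Ccn2 (6.04) and the largest fall Hbb-y (-6.84).

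Interstitial matrix genes were higher in MEF in 25 of 32 measured and lower in 1, with a median difference of 1.56 (all genes, -0.05) and shares of 78.1% higher and 3.12% lower, against 22.1% and 27.1% of all genes. Col8a1, a short-chain collagen of vessel walls and basement membranes, stood at 11.03 to 11.27 on the MEF arrays (median 11.20), against 6.32, 6.46, 6.22 and 6.41 on the SGM arrays, a difference of 4.83 ± 0.07 over an SGM level within the range of the controls. Mgp, an inhibitor of calcification, differed by 4.64 ± 0.14 (3.87 after quantile normalization) and Tnc, a matrix glycoprotein of wounds and tendons, by 4.39 ± 0.12 (3.72). Fbln2, which binds elastic fibres and basement membranes, stood at 16.01 to 16.34 on the MEF arrays (median 16.32), against 12.001, 11.78, 12.18 and 11.96 on the SGM arrays (4.27 ± 0.11, and 2.41 after quantile normalization). Periostin (Postn), a matricellular protein, was 3.67-fold higher and lumican (Lum), a collagen-binding proteoglycan, 3.23-fold.

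The fibrillar collagens differed among themselves. Col5a2 rose by 3.80 and Col1a2 by 1.97 as deposited (1.74 and -0.13 after quantile normalization). Col3a1, the main partner of collagen I in soft tissue, differed by 0.66 ± 0.10 and passed no test after quantile normalization (-0.18), as was also so for decorin (Dcn, 0.59 ± 0.21 and 0.17). The 2 probe sets of Col1a1, the main chain of collagen I, disagreed: the brighter over the 10 arrays passed no test (11.78 ± 0.52 in MEF and 11.77 ± 0.32 in SGM), and the other was 11.86 ± 0.15 in MEF and 9.40 ± 0.22 in SGM, a difference of 2.46 (adjusted p = 1.26e-15). The 1 matrix gene lower in MEF was Mfap2, a component of microfibrils, at 8.89 to 9.60 on the MEF arrays (median 9.23), against 11.08, 10.47, 10.57 and 10.94 on the SGM arrays (-1.55 ± 0.14).

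Of 15 measured enzymes that process and export collagen 2 were lower (13.3%, against 27.1% of all genes). The list median was 1.09, and 11 were higher (73.3%, against 22.1%). Besides Lox they included the collagen prolyl hydroxylase subunits P4ha1 (2.32 ± 0.16) and P4ha2 (1.41 ± 0.12) and Sec23a, a coat protein of vesicles leaving the endoplasmic reticulum (1.69 ± 0.13). The 2 lower were P4hb (-0.21 ± 0.08) and Bmp1 (-0.30 ± 0.08), a procollagen protease. Another probe set of Bmp1 was called higher (0.67), and the mean over its probe sets was 0.19. P4hb passed no test when its probe sets were averaged (-0.05).

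Proteases that degrade matrix, with their inhibitors, were higher in 15 of 23 (65.2%, against 22.1% of all genes), also with a median of 1.09. Falls numbered 2 (8.7%, against 27.1%). Prss23, a secreted serine protease, stood at 14.82 to 15.68 on the MEF arrays (median 15.23), against 9.79, 11.47, 11.05 and 10.48 on the SGM arrays, a difference of 4.58 ± 0.21 (3.27 after quantile normalization). Stromelysin (Mmp3) stood at 14.34 to 15.34 on the MEF arrays (median 14.96), against 11.01, 10.71, 10.89 and 10.56 on the SGM arrays (4.10 ± 0.14 and 2.93). Collagenase 3 (Mmp13) differed by 2.83 ± 0.18, over an SGM level within the range of the controls, and the membrane-anchored Mmp14, which activates other metalloproteases, was 7.01-fold higher. The 2 lower were Mmp11 at 6.76 to 7.004 on the MEF arrays (median 6.85), against 8.73, 8.24, 8.17 and 8.66 on the SGM arrays (-1.59 ± 0.12), and tissue plasminogen activator (Plat) at 10.59 to 11.11 on the MEF arrays (median 10.77), against 11.90, 11.87, 12.06 and 12.17 on the SGM arrays (-1.18 ± 0.13).

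Contractile and actin-binding genes had the largest share of rises among 34 lists, 29 of 35 (82.9%, against 22.1% of all genes). The list had 1 fall (2.86%, against 27.1% of all genes) and a median of 1.56. Acta2, the smooth muscle actin of myofibroblast stress fibres, stood at 16.51 to 16.74 on the MEF arrays (median 16.52), against 13.65, 12.79, 13.58 and 13.41 on the SGM arrays. Tagln (transgelin, an actin cross-linker of smooth muscle) stood at 14.99 to 15.48 on the MEF arrays (median 15.24), against 11.44, 11.16, 11.37 and 10.96 on the SGM arrays, a difference of 4.00 ± 0.12 (2.67 after quantile normalization). The groups were apart in both. Acta1, the skeletal muscle actin and a classic SRF target, stood at 10.59 to 11.23 on the MEF arrays (median 10.90), against 7.64, 7.69, 7.57 and 7.73 on the SGM arrays (3.25 ± 0.11). The cardiac actin Actc1 was also higher by its brightest probe set (2.16 ± 0.12), while its other probe set was called lower (-1.61), and actin probe sets may read more than 1 actin gene. Only Csrp2, a LIM protein of muscle cells, fell in this list, to 7.30 ± 0.14 in MEF, against 9.06 ± 0.20 in SGM.

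Regulators of skeletal muscle did not rise with the actins. Myod1, Myog and Myf5, which specify skeletal muscle, passed no test (-0.15, -0.18 and -0.06; Myog was called lower at -0.27 without SGM replicates 1 and 4, and Myod1 at -0.19 with array weights), nor did desmin (Des, -0.11). Of 31 skeletal and cardiac muscle genes 4 were higher (12.9%) and 6 lower (19.4%, or 10 with array weights), against 22.1% and 27.1% of all genes. The lower ones included Tnni1 at 7.64 to 7.90 on the MEF arrays (median 7.75), against 10.06, 8.87, 9.37 and 9.16 on the SGM arrays (-1.61 ± 0.13), and Tnnt1 (-1.37 ± 0.21), the slow skeletal troponins I and T.

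SRF binds the CArG box, a site of 10 bases with CC, 6 bases of A or T, and GG. In the 250 bases before the start of the gene, on either strand, 7 of the 24 called contractile genes with a RefSeq promoter (GRCm38.p6) held one (29.2%), against 439 of all 27025 genes of that table (1.62%). They were Acta1, Actg1, Cnn2, Fhl1, Fhl2, Myl9 and Vcl. Windows of Acta1 (chr8:123894794-123894893, minus strand) and Vcl, which encodes vinculin of focal adhesions (chr14:20929148-20929225, plus strand), are shown 5′ to 3′ in the direction of the gene, with the CArG box in capitals, as the sites of an actin gene and of a focal adhesion gene.
Acta1: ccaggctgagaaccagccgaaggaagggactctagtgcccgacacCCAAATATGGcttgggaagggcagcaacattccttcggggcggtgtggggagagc
Vcl: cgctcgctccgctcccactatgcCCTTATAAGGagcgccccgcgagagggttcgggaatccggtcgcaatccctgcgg
The box of Acta1 starts 73 bases and that of Vcl 227 bases before the gene. A match describes the letters of the window and no more. Here and for the motifs below, the share of all genes covers the whole promoter table, not only the 6572 measured genes with a promoter. Uncalled members of the lists were not compared, so these shares say nothing on the difference between MEF and SGM.

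The list of integrins and focal adhesion genes held more rises than falls, and integrins were not counted apart from the rest of it. Of 27 integrins and focal adhesion genes 13 were higher (48.1%, against 22.1% of all genes) and 3 lower (11.1%, against 27.1%). Cav1, the coat protein of caveolae, stood at 15.01 to 15.46 on the MEF arrays (median 15.18), against 11.49, 11.16, 11.72 and 11.44 on the SGM arrays, a difference of 3.78 ± 0.10 (2.47 after quantile normalization). The tetraspanin Cd9 was 6.18-fold and the syndecans Sdc4 and Sdc2, cell surface proteoglycans, 3.52-fold and 2.79-fold higher. Itga6, the laminin receptor subunit of epithelial cells, stood at 6.39 to 6.95 on the MEF arrays (median 6.67), against 8.26, 8.33, 8.78 and 8.52 on the SGM arrays, and fell by 1.81 on the log2 scale, as did Itga3 (-0.43 ± 0.09) and the adaptor paxillin (Pxn, -0.34 ± 0.09).

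Of 18 genes known to respond to YAP or SRF, 2 were lower (11.1%, against 27.1% of all genes) and 10 higher (55.6%, against 22.1%). After Ccn2 came Ankrd1, a muscle repeat protein and standard YAP readout, at 9.66 to 10.44 on the MEF arrays (median 10.05), against 5.61, 5.68, 5.85 and 5.73 on the SGM arrays, a difference of 4.31 ± 0.14. Ptgs2, the inducible cyclooxygenase, differed by 3.74 ± 0.16 and F3, the tissue factor that starts blood clotting, by 3.64 ± 0.11. The 2 lower were survivin (Birc5, -2.50 ± 0.11), which also belongs to mitosis, and Tead2, a DNA-binding partner of YAP of embryonic tissue, at 8.87 to 9.08 on the MEF arrays (median 8.99), against 10.76, 10.50, 10.57 and 10.49 on the SGM arrays (-1.60 ± 0.08). The TEAD site GGAATG was found in 5 of 9 called promoters, against 14.4% of all genes.

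Of 28 secreted inflammatory factors 17 were higher (60.7%, against 22.1% of all genes) and 2 lower (7.14%, against 27.1%). The monocyte chemoattractant Ccl2 stood at 12.81 to 13.77 on the MEF arrays (median 13.20), against 8.04, 8.02, 8.21 and 8.30 on the SGM arrays, a 34.0-fold rise. Ccl7, which is encoded beside it in the same chemokine cluster, stood at 13.13 to 14.18 on the MEF arrays (median 13.78), against 8.22, 7.90, 8.11 and 8.10 on the SGM arrays (5.64 ± 0.14, and 4.98 after quantile normalization). Tnfrsf11b, the decoy receptor osteoprotegerin, differed by 2.83 ± 0.14. Kitl, the ligand of Kit that germ cells need, was the largest fall of the list, at 8.16 to 9.01 on the MEF arrays (median 8.23), against 9.21, 10.12, 10.09 and 9.64 on the SGM arrays (-1.42 ± 0.16), and Vegfa, the vessel growth factor, also fell (-0.62 ± 0.13; -0.35 without SGM replicates 1 and 4, where it passed no test).

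Immediate early genes are transcribed within minutes of a stimulus and also rise when tissue is dissociated. Of 33 on the list 16 were higher (48.5%, against 22.1% of all genes) and 7 lower (21.2%, against 27.1%). Fos stood at 10.79 to 11.69 on the MEF arrays (median 11.47), against 14.07, 14.63, 13.91 and 14.59 on the SGM arrays, and fell by 2.98 on the log2 scale (3.49 after quantile normalization). Its second probe set, dim in both groups, passed no test. Atf3, Ier2 and Jund were lower as well (-1.67, -1.47 and -1.41), although 2 other probe sets of Atf3 passed no test. The C/EBP factors Cebpb (2.34 ± 0.17) and Cebpd (1.43 ± 0.14), Ier3 (1.42 ± 0.15) and Klf6 (1.57 ± 0.19, ending as a call at 0.37 after quantile normalization) were higher. Times from dissection or harvest to lysis are not given in the labels, and their part in these genes was not tested.

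Of 30 antigen presentation and interferon genes 23 were higher (76.7%, against 22.1% of all genes) and 2 lower (6.67%, against 27.1%). Their median difference was 1.18. Irgm1, an interferon-inducible GTPase that acts against intracellular bacteria, stood at 9.14 to 10.48 on the MEF arrays (median 9.80), against 6.76, 6.50, 6.67 and 6.09 on the SGM arrays (3.27 ± 0.18). Ifitm3, a membrane protein that blocks virus entry, stood at 12.32 to 12.76 on the MEF arrays (median 12.47), against 9.53, 8.93, 9.15 and 9.45 on the SGM arrays (3.25 ± 0.16). Isg15, a ubiquitin-like modifier, stood at 9.74 to 10.78 on the MEF arrays (median 10.13), against 7.34, 7.07, 7.34 and 7.21 on the SGM arrays (2.91 ± 0.13), and Ifi35 differed by 2.66 ± 0.12. The groups overlapped in none of these genes. The 2 lower were Irf3 (-0.53 ± 0.09), the factor that starts the interferon response, and Ifitm1 (-0.32 ± 0.12), which passed no test after quantile normalization (-0.25).

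The core of the interferon-stimulated response element (TTTC, any 2 bases, TTTC) was found on either strand in 8 of 21 called promoters of this list (38.1%), against 936 of 27025 genes (3.46%). They were B2m, Gbp2, Gbp3, Ifit1, Ifit3, Igtp, Irgm1 and Isg15. Those of Irgm1 (chr11:48871421-48871495, minus strand) and Isg15 (chr4:156200830-156200941, minus strand) hold 2 and 3 overlapping matches. They are shown as above because both genes differed by about 3 log2 units, with the matches in capitals. All lie on the strand opposite to the one shown, so the capitals hold their reverse complement.
Irgm1: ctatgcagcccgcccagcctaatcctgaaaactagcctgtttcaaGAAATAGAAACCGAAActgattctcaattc
Isg15: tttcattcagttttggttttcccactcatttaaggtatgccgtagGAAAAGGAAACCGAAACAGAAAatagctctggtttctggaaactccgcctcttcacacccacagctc

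Of 30 inhibitors of the cell cycle and p53 targets 18 were higher (60%, against 22.1% of all genes) and 5 lower (16.7%, against 27.1%). Cdkn2b (p15, an inhibitor of Cdk4 and Cdk6) stood at 11.502 to 12.04 on the MEF arrays (median 11.84), against 6.42, 6.67, 6.37 and 6.79 on the SGM arrays, a difference of 5.24 ± 0.16 over an SGM mean within the range of the controls. Ccng1, a p53 target, stood at 13.73 to 14.08 on the MEF arrays (median 13.81), against 8.95, 9.67, 9.29 and 9.10 on the SGM arrays (4.62 ± 0.18 and 3.92 after quantile normalization). Perp, a p53 target and membrane protein of cell junctions, differed by 4.19 ± 0.24 and Cdkn1a (p21), which stops the cycle downstream of p53, by 4.14 ± 0.13. Cdkn1a stood at 12.69 to 13.11 on the MEF arrays (median 12.75), against 8.87, 8.19, 8.93 and 8.87 on the SGM arrays, with no overlap. The largest fall was the imprinted inhibitor Cdkn1c (p57), at 6.96 to 8.05 on the MEF arrays (median 7.49), against 11.33, 11.44, 11.22 and 11.22 on the SGM arrays (-3.78 ± 0.21). Lmnb1, the nuclear lamina protein that is lost in senescent cells, stood at 6.08 to 6.52 on the MEF arrays (median 6.23), against 8.80, 10.18, 9.38 and 8.89 on the SGM arrays (-3.04 ± 0.21). Rbl1, an Rb relative of cycling cells, and Sesn1, a p53 target, were lower too (-1.15 and -1.16).

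DNA replication genes were lower in MEF in 33 of 36 and higher in none, with a median of -1.40, a share of 91.7% against 27.1% of all genes. Geminin (Gmnn), which restrains origin licensing, stood at 5.05 to 6.13 on the MEF arrays (median 5.53), against 8.35, 8.45, 8.46 and 8.39 on the SGM arrays (-2.86 ± 0.16). Pola1, the catalytic subunit of the polymerase that starts each strand, stood at 5.56 to 5.96 on the MEF arrays (median 5.83), against 8.39, 8.95, 8.75 and 8.52 on the SGM arrays (-2.84 ± 0.16). Subunits of the replicative helicase fell too, Mcm3 by 2.68 and Mcm5 by 2.67 on the log2 scale, although the second probe set of Mcm5 passed no test (-0.05).

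Mitosis genes were lower in 31 of 35 (88.6%, against 27.1% of all genes) and higher in none, with a median of -1.62. Stathmin (Stmn1), which destabilizes microtubules, stood at 7.94 to 8.42 on the MEF arrays (median 8.21), against 11.85, 11.97, 12.13 and 11.93 on the SGM arrays (-3.76 ± 0.17). Top2a, the topoisomerase that disentangles chromosomes, stood at 5.58 to 6.00 on the MEF arrays (median 5.77), against 8.42, 8.71, 8.53 and 8.36 on the SGM arrays (-2.71 ± 0.14). Tacc3 of the spindle fell by 2.81 and the phosphatase Cdc25c, which starts mitosis, by 2.61. MEF was the lowest of the 10 groups of the series in all 4. The chromatin proteins Hmgb2 and Hmgb3, abundant in dividing and embryonic cells, were among the 12 largest falls (-3.75 and -3.65). One growth gene went the other way: cyclin D2 (Ccnd2) stood at 9.12 to 10.92 on the MEF arrays (median 10.30), against 7.49, 7.55, 8.06 and 7.49 on the SGM arrays (2.50 ± 0.21), with a wide spread among MEF arrays.

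E2F factors drive many replication genes. The E2F site spellings TTTCCCGC, TTTGGCGC and TTTCGCGC were searched on both strands, and 7 of 29 called promoters held 1 or more (24.1%), against 480 of 27025 genes (1.78%). They were Cdc6, Mcm5, Mcm7, Orc1, Pola1, Rfc3 and Uhrf1. The windows of Pola1 (chrX:93632241-93632338, minus strand) and Mcm5 (chr8:75109311-75109412, plus strand) are shown as above, with the sites in capitals; Mcm5 holds 2 that overlap on opposite strands.
Pola1: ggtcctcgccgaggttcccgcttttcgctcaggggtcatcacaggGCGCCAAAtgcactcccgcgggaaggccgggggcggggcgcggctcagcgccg
Mcm5: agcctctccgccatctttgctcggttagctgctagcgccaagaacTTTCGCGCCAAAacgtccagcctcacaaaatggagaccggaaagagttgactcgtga
For mitosis genes the CHR element TTTGAA was found in 10 of 25 promoters (40%), against 18.3% of all genes.

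The largest falls in MEF were globins. The embryonic beta-like globin Hbb-y stood at 4.86 to 5.21 on the MEF arrays (median 5.06), against 11.83, 11.83, 11.91 and 11.96 on the SGM arrays, a difference of -6.84 ± 0.36. Adult alpha globin Hba-a1 stood at 6.78 to 7.18 on the MEF arrays (median 7.04), against 13.16, 13.26, 13.18 and 13.10 on the SGM arrays, and the embryonic alpha-like Hba-x at 6.20 to 6.54 on the MEF arrays (median 6.27), against 12.45, 12.57, 12.80 and 13.31 on the SGM arrays. Globin genes are close copies of each other, and their probe sets may share signal. Of 23 erythroid genes 19 were lower in MEF (82.6%, against 27.1% of all genes) and none higher. The sequence AGATAA was found in 4 of 14 called promoters (28.6%), against 11.4% of all genes. Alas2, which starts haem synthesis in red cells, stood at 7.13 to 7.32 on the MEF arrays (median 7.24), against 9.01, 9.75, 10.20 and 10.43 on the SGM arrays, and the red cell anion exchanger Slc4a1 at 6.45 to 6.71 on the MEF arrays (median 6.49), against 7.86, 8.35, 8.92 and 9.33 on the SGM arrays. Both were lowest on SGM replicate 1 among the SGM arrays. So was Hemgn, a nuclear protein of blood progenitors, at 4.62 to 4.74 on the MEF arrays (median 4.67), against 7.11, 8.95, 9.03 and 8.73 on the SGM arrays. Carbonic anhydrase 2 (Car2), at 7.77 to 8.10 on the MEF arrays (median 7.90), against 9.33, 12.10, 11.73 and 11.40 on the SGM arrays, was likewise lowest there, and its difference was -3.23, or -3.84 without that array.

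Endothelial genes were lower in 12 of 28 (42.9%, against 27.1% of all genes) and higher in 1 (3.57%, against 22.1%). Emcn, a sialomucin of venous endothelium, stood at 7.07 to 7.39 on the MEF arrays (median 7.25), against 8.91, 8.88, 8.89 and 8.56 on the SGM arrays (-1.57 ± 0.11). Ramp2, the adrenomedullin receptor partner, differed by -1.43 ± 0.10, the scavenger receptor Stab1 by -1.40 ± 0.18 and VE-cadherin (Cdh5) by -1.30 ± 0.12. Pecam1 (0.09 ± 0.09) and Tek (-0.21 ± 0.12) passed no test, although Tek did with the MEF and SGM arrays fitted alone. The 1 higher gene was Flt1, the decoy receptor for Vegfa, at 8.22 to 8.58 on the MEF arrays (median 8.43), against 7.78, 7.72, 7.80 and 7.66 on the SGM arrays (0.69 ± 0.08).

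Macrophage and leukocyte genes gave no common direction, with 5 of 27 higher and 10 lower, which is 18.5% and 37%, against 22.1% and 27.1% of all genes. The falls were 6 with arrays centred on their medians and 5 without SGM replicates 1 and 4. Lysozyme (Lyz2) was higher, at 6.37 to 7.14 on the MEF arrays (median 6.80), against 4.95, 4.67, 5.30 and 5.41 on the SGM arrays (1.69 ± 0.14), as were the protease Lgmn (1.18 ± 0.20) and the endotoxin receptor Cd14 (0.62 ± 0.07). The macrophage-defining genes Adgre1 (-0.02 ± 0.08) and C1qa (0.00 ± 0.10) passed no test, and the mannose receptor Mrc1 (-0.70 ± 0.15) and Laptm5 (-0.67 ± 0.13) were lower.

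Regulators of the gonad were lower in MEF in 20 of 35 (57.1%, against 27.1% of all genes) and higher in 3 (8.57%, against 22.1%). Wt1, the transcription factor without which the gonadal ridge does not form, stood at 5.07 to 5.55 on the MEF arrays (median 5.27), against 8.74, 8.20, 8.34 and 8.81 on the SGM arrays (-3.25 ± 0.12). Wnt4, the signal needed for ovary and kidney development, stood at 6.41 to 6.72 on the MEF arrays (median 6.54), against 9.89, 8.43, 9.39 and 9.45 on the SGM arrays (-2.74 ± 0.17). Both were highest in SGM of all 10 groups. Tcf21 (-1.94 ± 0.08), a factor of gonadal and kidney mesenchyme, Nr0b1 (-0.78 ± 0.13) and Lhx9 (-0.73 ± 0.11), both gonad transcription factors, and Nr5a1 (SF-1, -0.57 ± 0.07) were lower as well. The 5 probe sets of Nr5a1 ranged from -1.30 to 0.01, with 3 called lower and none higher. The mesothelial genes Krt18 (-3.08 ± 0.40) and Upk3b (-2.21 ± 0.11) fell with them.

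The 3 gonad list genes that were higher in MEF belong to activin signalling. Inhba, the activin A subunit, stood at 12.21 to 13.01 on the MEF arrays (median 12.49), against 8.10, 7.73, 8.22 and 8.14 on the SGM arrays, a 22.4-fold rise (4.49 ± 0.15). Follistatin (Fst), which binds and blocks activin, stood at 10.17 to 10.74 on the MEF arrays (median 10.28), against 7.30, 6.98, 7.19 and 7.21 on the SGM arrays (3.24 ± 0.11), and the activin B subunit Inhbb differed by 1.57 ± 0.14. Nr2f1, an orphan receptor of mesenchyme, stood at 4.93 to 5.14 on the MEF arrays (median 5.01), against 6.11, 8.67, 6.96 and 6.67 on the SGM arrays, with SGM replicate 2 far above the other SGM arrays. Its difference was -2.09 ± 0.27, or -2.80 without SGM replicates 1 and 4.

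Mesonephric and nephric genes were lower in 8 of 22 (36.4%, against 27.1% of all genes) and higher in 1 (4.55%, against 22.1%). Only 2 of the falls were at least 2-fold. Cdh16, the kidney-specific cadherin of tubules and ducts, stood at 5.41 to 5.88 on the MEF arrays (median 5.58), against 8.95, 8.29, 8.72 and 9.61 on the SGM arrays (-3.26 ± 0.15), and Foxd1, a factor of kidney stroma, at 6.12 to 6.35 on the MEF arrays (median 6.20), against 7.38, 8.38, 8.12 and 7.55 on the SGM arrays (-1.63 ± 0.13). Bmp7 (-0.81 ± 0.10) and Wnt11 (-0.96 ± 0.13), secreted signals of the duct, were lower. The duct factors Pax2 (-0.14), Lhx1 (-0.19) and Gata3 (0.34) passed no test. Lhx1 was called lower with array weights (-0.24), and Gata3 higher with the MEF and SGM arrays fitted alone. The rise was Synpo, an actin-binding protein of podocytes that stress fibres also carry (2.88 ± 0.14).

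Epithelial genes were lower in 16 of 23 (69.6%, against 27.1% of all genes) and higher in 2 (8.7%, against 22.1%), with a median of -1.06. Of the keratins that pair in simple epithelia, Krt18 stood at 5.32 to 5.93 on the MEF arrays (median 5.66), against 9.07, 8.28, 8.36 and 9.06 on the SGM arrays. Krt8 stood at 7.77 to 8.38 on the MEF arrays (median 8.14), against 10.50, 9.45, 10.12 and 10.44 on the SGM arrays. The tight junction protein Cldn7 fell by 2.40, prominin (Prom1) by 2.07 and the adhesion molecule Epcam by 2.07 on the log2 scale. For Cldn7 and Epcam the means of both groups lay within the range of the controls. E-cadherin (Cdh1) passed no test (8.42 ± 0.09 in MEF and 8.48 ± 0.04 in SGM). The 2 rises, Tjp1 (0.49 ± 0.19) and Cdh3 (0.19 ± 0.08), passed no test after quantile normalization (0.23 and 0.20, adjusted p = 0.258 and 0.0514).

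**Figure D5:**
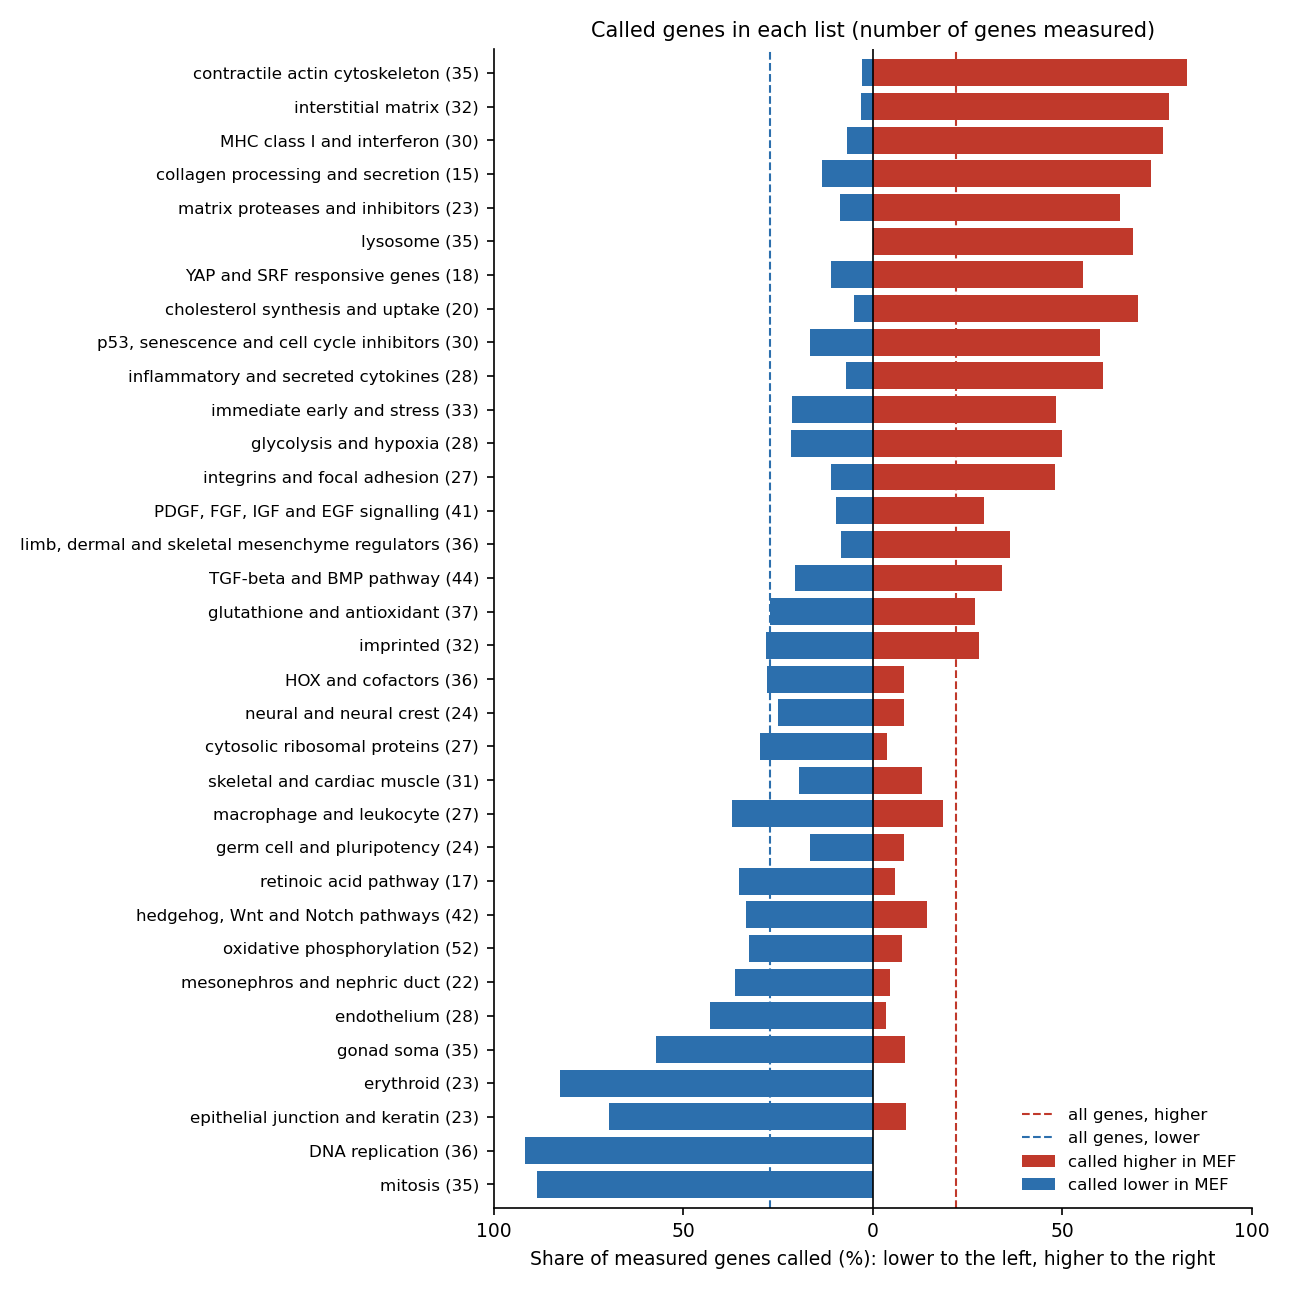
Share of the measured genes of each of 34 lists called higher in MEF (red, right) or lower (blue, left), in percent and ordered by median difference, with the number measured in brackets. Dashed lines give the shares over all 8251 genes (22.1% higher, 27.1% lower); contractile genes have the largest share of rises (82.9%) and DNA replication genes the largest share of falls (91.7%).

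Most positional regulators passed no test, and the called ones went in both directions. Of 36 regulators of limb, dermal and skeletal mesenchyme, 13 were higher (36.1%, against 22.1% of all genes) and 3 lower (8.33%, against 27.1%) in MEF. Tbx15, a T-box factor of skin and skeleton, stood at 8.15 to 8.84 on the MEF arrays (median 8.63), against 5.97, 5.73, 5.75 and 5.73 on the SGM arrays (2.80 ± 0.12). Shox2, a homeobox factor of the proximal limb, stood at 8.42 to 9.06 on the MEF arrays (median 8.82), against 6.38, 6.23, 6.46 and 6.90 on the SGM arrays (2.30 ± 0.12). Meox2, a factor of somites and limb muscle, stood at 6.10 to 6.92 on the MEF arrays (median 6.77), against 4.04, 5.80, 3.99 and 3.98 on the SGM arrays (2.15 ± 0.23), with 1 SGM array apart from the other 3. Snai2, a repressor of epithelial genes, was 2.58-fold higher. Tbx2 (-0.51 ± 0.09) and Tbx3 (-0.66 ± 0.11) were lower.

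Of 36 HOX genes and cofactors, which set position along the body axis, 10 were lower (27.8%, against 27.1% of all genes) and 3 higher (8.33%, against 22.1%). The cofactor Meis1 stood at 5.11 to 5.43 on the MEF arrays (median 5.33), against 7.23, 7.68, 6.97 and 6.72 on the SGM arrays (-1.86 ± 0.13), and Meis2 (-0.87 ± 0.13) and Pbx2 (-0.997 ± 0.10) were lower too. Hoxc9 was the HOX gene with the largest fall (-0.93 ± 0.15). The 3 rises were Hoxa5, Hoxa7 and Hoxa11 (0.57, 0.31 and 0.40), whose groups overlapped; none of the 3 passed the test without SGM replicates 1 and 4, and Hoxa7 also did not after quantile normalization.

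Imprinted genes, of which 1 parental copy is silent, had 9 rises and 9 falls among 32, each 28.1%, against 22.1% and 27.1% of all genes. After quantile normalization 5 were higher. The 3 largest differences were falls. Mest stood at 7.54 to 8.15 on the MEF arrays (median 7.79), against 11.33, 11.48, 11.40 and 11.46 on the SGM arrays (-3.62 ± 0.17), Cdkn1c was given above, and Peg3 averaged 11.51 ± 0.12 in MEF and 13.46 ± 0.03 in SGM (SD, n = 6 and 4; difference -1.95 ± 0.18, and -2.45 after quantile normalization). Dlk1, a Notch-like ligand of growing tissues, stood at 9.13 to 9.52 on the MEF arrays (median 9.38), against 11.10, 10.73, 10.83 and 10.64 on the SGM arrays (-1.48 ± 0.09). All 4 were highest in SGM of the 10 groups. Among the rises were the ubiquitin ligase Ube3a (1.86 ± 0.23) and the tetraspanin Cd81 (1.64 ± 0.13, and 1.04 after quantile normalization), which have been reported as imprinted only in some tissues.

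Retinoic acid genes were lower in 6 of 17 (35.3%, against 27.1% of all genes) and higher in 1 (5.88%, against 22.1%). Adh1, an alcohol dehydrogenase that can oxidize retinol, stood at 7.14 to 7.31 on the MEF arrays (median 7.16), against 9.19, 9.23, 9.40 and 9.25 on the SGM arrays (-2.08 ± 0.22). Aldh1a2, the main enzyme of retinoic acid synthesis in the embryo, stood at 5.60 to 6.07 on the MEF arrays (median 5.84), against 6.91, 7.98, 7.38 and 7.54 on the SGM arrays (-1.61 ± 0.12). Rbp4, the plasma carrier of retinol, was the 1 gene higher (1.33 ± 0.14).

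Growth factor pathways split by member. In the TGF-beta and BMP list 15 of 44 were higher (34.1%, against 22.1% of all genes) and 9 lower (20.5%, against 27.1%). Among ligands, Tgfb3 (2.35 ± 0.11) was higher beside Inhba, whereas Bmp7 was lower, and the matrix protein Ltbp2, which binds latent TGF-beta, was higher (2.31 ± 0.11). Of the Id genes, BMP targets, Id1, Id2 and Id3 fell and Id4 rose. Id2, which blocks bHLH factors, stood at 8.28 to 9.07 on the MEF arrays (median 8.74), against 10.69, 11.29, 10.98 and 10.94 on the SGM arrays (-2.24 ± 0.34), and Id1 at 7.93 to 9.23 on the MEF arrays (median 8.37), against 10.46, 10.23, 9.93 and 10.44 on the SGM arrays (-1.78 ± 0.20). The activin receptor Acvr2b was lower (-1.05 ± 0.11).

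In the hedgehog, Wnt and Notch list 14 of 42 were lower (33.3%, against 27.1% of all genes) and 6 higher (14.3%, against 22.1%). Besides Wnt4, the ligand Wnt5b was lower (-1.18 ± 0.10), and Wnt6 stood at 5.56 to 5.77 on the MEF arrays (median 5.70), against 8.00, 6.89, 7.50 and 7.82 on the SGM arrays (-1.87 ± 0.18). Secreted Wnt antagonists split, with Dkk2, Dkk3, Sfrp1 and Sfrp4 higher and Dkk1, Sfrp2 and Frzb lower. Dkk2 stood at 9.23 to 9.89 on the MEF arrays (median 9.42), against 6.48, 6.31, 6.38 and 6.23 on the SGM arrays (3.13 ± 0.14), Dkk3 differed by 2.47 ± 0.08 and Sfrp4 by 0.72 ± 0.10. In the list of PDGF, FGF, IGF and EGF signalling 12 of 41 were higher (29.3%, against 22.1% of all genes) and 4 lower (9.76%, against 27.1%). Gas6, the ligand of the receptor Axl, stood at 10.36 to 10.82 on the MEF arrays (median 10.62), against 8.30, 8.15, 8.36 and 8.46 on the SGM arrays (2.26 ± 0.10), and the EGF receptor ligand Ereg (1.47 ± 0.11) and the receptor Fgfr1 (1.002 ± 0.10) were higher. Igfbp2, which binds insulin-like growth factors, was lower (-1.44 ± 0.17). Midkine (Mdk), a heparin-binding growth factor of embryonic tissue, was the largest fall outside the globins, at 9.37 to 9.85 on the MEF arrays (median 9.45), against 13.99, 13.75, 13.76 and 13.81 on the SGM arrays (-4.29 ± 0.14), and its relative pleiotrophin (Ptn) stood at 6.76 to 8.24 on the MEF arrays (median 7.54), against 5.10, 7.57, 5.96 and 6.05 on the SGM arrays, which overlap. Its difference was 1.38 ± 0.32, or 0.79 and not called without SGM replicates 1 and 4.

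Lysosomal genes were higher in 24 of 35 (68.6%, against 22.1% of all genes) and lower in none, with a median of 0.92. Their list means were 10.21 to 10.35 on the MEF arrays, against 9.28 to 9.47 on the SGM arrays. The protease Tpp1 stood at 10.29 to 10.80 on the MEF arrays (median 10.74), against 7.88, 7.97, 7.77 and 7.80 on the SGM arrays (2.80 ± 0.13), and the membrane protein Scarb2 at 9.39 to 9.73 on the MEF arrays (median 9.52), against 7.20, 7.33, 7.55 and 7.37 on the SGM arrays (2.18 ± 0.13). Lamp2 of the lysosomal membrane differed by 2.00 ± 0.22 (1.45 after quantile normalization) and cathepsin C (Ctsc) by 1.84 ± 0.20. The CLEAR element TCACGTGA was found in 3 of 21 called promoters (14.3%), against 0.907% of all genes.

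Cholesterol synthesis and uptake genes were higher in 14 of 20 (70%, against 22.1% of all genes) and lower in 1 (5%, against 27.1%). Msmo1 stood at 10.09 to 10.59 on the MEF arrays (median 10.32), against 7.87, 8.43, 7.91 and 7.66 on the SGM arrays (2.35 ± 0.20), and Sc5d differed by 2.20 ± 0.24, Hsd17b7 by 1.77 ± 0.10 and Nsdhl by 1.76 ± 0.12, all enzymes of the late steps from lanosterol. Mevalonate kinase (Mvk) was lower by its brightest probe set (-0.67 ± 0.12), and its other probe set passed no test. The sequence TCACCCCAC was found in 1 of 11 called promoters (9.09%), that of Hmgcs1, against 0.555% of all genes.

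Energy metabolism was less uniform. Glycolysis and hypoxia genes were higher in 14 of 28 (50%, against 22.1% of all genes) and lower in 6 (21.4%, against 27.1%). Isoforms went opposite ways: the phosphofructokinase Pfkp stood at 8.52 to 8.85 on the MEF arrays (median 8.71), against 5.36, 5.04, 5.29 and 5.58 on the SGM arrays (3.39 ± 0.23), whereas its muscle isoform Pfkm was lower (-0.65 ± 0.09). Hexokinase 2 (Hk2) was higher (1.49 ± 0.26) and hexokinase 1 (Hk1) lower (-0.76 ± 0.14), and lactate dehydrogenase B (Ldhb) stood at 9.36 to 9.86 on the MEF arrays (median 9.59), against 11.26, 11.14, 11.75 and 11.45 on the SGM arrays (-1.81 ± 0.13). Adm, adrenomedullin, a hypoxia-inducible peptide, was 6.65-fold higher. Oxidative phosphorylation subunits were lower in 17 of 52 (32.7%, against 27.1% of all genes) and higher in 4 (7.69%, against 22.1%), none by 2-fold, with a median of -0.14. The count of falls was 11 with arrays centred on their medians, and also without SGM replicates 1 and 4. Cytosolic ribosomal proteins were lower in 8 of 27 (29.6%, near the share of all genes) and higher in 1 (3.7%, against 22.1%), with a median of -0.08. The falls were 5 with arrays centred on their medians, 16 after quantile normalization and 4 without SGM replicates 1 and 4.

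Antioxidant genes were higher in 10 and lower in 10 of 37, each 27% and near the shares of all genes, and lower in 6 without SGM replicates 1 and 4. Gsto1, an omega class glutathione transferase, stood at 12.999 to 13.44 on the MEF arrays (median 13.20), against 11.13, 11.03, 11.10 and 10.96 on the SGM arrays (2.13 ± 0.17, and 1.58 after quantile normalization), and the metallothionein Mt1 differed by 1.70 ± 0.24. Gsta4, an alpha class transferase that clears lipid aldehydes, stood at 6.94 to 7.88 on the MEF arrays (median 7.54), against 9.61, 9.12, 9.41 and 9.54 on the SGM arrays (-1.98 ± 0.16).

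Most neural and germ cell genes passed no test. Of 24 neural and neural crest genes 2 were higher (8.33%, against 22.1% of all genes) and 6 lower (25%, against 27.1%, or 11 lower with array weights). The largest were the microtubule regulator Stmn2, at 12.44 to 12.66 on the MEF arrays (median 12.49), against 11.19, 10.94, 10.91 and 10.999 on the SGM arrays (1.52 ± 0.11), and Chgb (-0.97 ± 0.24). Of 24 germ cell and pluripotency genes 2 were higher (8.33%, against 22.1% of all genes) and 4 lower (16.7%, against 27.1%). Apart from Ifitm3, which is counted among the interferon genes as well, the largest was Dppa5a (-1.04 ± 0.12), at 5.12 to 5.59 on the MEF arrays (median 5.38), against 6.50, 6.07, 6.30 and 6.74 on the SGM arrays. Nanog (-0.03), Sox2 (-0.26) and Dppa3 (-0.22) passed no test, although Sox2 was called lower without SGM replicate 1 (-0.36).

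Spread within the groups was small, with a median SD per gene of 0.136 in MEF and 0.115 in SGM. Among SGM arrays the variation had an order: of the 100 genes with the largest SD, replicate 2 was highest in 86 and replicate 1 lowest in 85. Arg1, arginase 1, read 5.45 to 5.72 on the MEF arrays (median 5.61), against 6.96, 9.46, 6.48 and 6.43 on the SGM arrays, and its difference was -1.74, or -1.03 without SGM replicate 2. Cdh2, N-cadherin, read 8.61 to 9.64 on the MEF arrays (median 9.26), against 7.41, 9.85, 8.41 and 7.55 on the SGM arrays. Its call (0.92 ± 0.35) ended without SGM replicate 1 (0.63), 3 (0.96) or 4 (0.67), and without MEF replicate 1 (0.84), 3 (0.85) or 4 (0.90), and it was 0.10 without SGM replicates 1 and 4. Among MEF arrays replicate 1 was highest in 58 of 100 such genes and replicate 5 lowest in 44. The widest of these were Xist, the RNA that silences 1 X chromosome, at 6.69 to 8.54 on the MEF arrays (median 7.07), against 6.39, 5.23, 5.35 and 5.58 on the SGM arrays, and the angiotensin receptor Agtr2, at 9.42 to 11.29 on the MEF arrays (median 10.14), against 8.87, 9.81, 9.10 and 10.40 on the SGM arrays. The groups overlapped in Agtr2, whose call (0.71 ± 0.26) ended after quantile normalization (0.53, adjusted p = 0.0733), and without MEF replicate 1 (0.50) or 6 (0.59), or SGM replicate 1 (0.48) or 3 (0.56).

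The Y-linked gene Eif2s3y stood at 6.16 to 7.02 on the MEF arrays (median 6.63), against 3.38, 6.95, 6.54 and 3.20 on the SGM arrays, so that 2 of the 4 SGM arrays were about 3 log2 units below the others although the labels give mixed sex for all. Without SGM replicates 1 and 4 its difference was -0.13 and not called. Leaving these 2 arrays out gave 1813 probe sets higher and 2065 lower in MEF, and did not move the counts of matrix, contractile, interferon, replication, mitosis, gonad or erythroid genes by over 1.5 times. Among the internal controls of the array, the 3′ minus 5′ difference of the actin controls was 0.47 in MEF and 0.70 in SGM, that of the Gapdh controls 2.66 in MEF and 3.08 in SGM, and 18S signal was 13.61 in MEF and 14.68 in SGM. Their part in the results was not tested.

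Genes with several probe sets were also read by the mean over them, which moved some of the differences above by over 1.5 times on the linear scale. Among rises the difference by that reading was Actc1 0.27, Bgn 2.31, Cav1 1.97, Col1a2 0.87, Ctsc 0.55, Ereg 0.78, Hk2 0.76, Lox 3.70, Lyz2 1.02, Sdc2 0.84, Shox2 1.28, Tbx15 1.30 and Tgfb3 1.48. Among falls it was Atf3 -0.58, Emcn -0.73, Fos -1.57, Hemgn -2.70, Krt18 -1.57, Ldhb -0.95, Mcm5 -1.36, Peg3 -1.18 and Stmn1 -1.93. Col1a1, not called by its brightest probe set, was 1.24 by the mean. Dim second probe sets, such as those of Krt18, Fos and Cav1, enter these means with the same weight as bright ones.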

How the data were processed

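The deposited table holds 12488 probe sets of an Affymetrix array in 34 columns, as log2 values that the authors made with RMA, per the submitters' processing notes (version not given in the sources used here). Per the labels' protocols, total RNA went through in vitro transcription 2 times, with biotin label, which favours the 3′ end of transcripts. Columns were matched to samples by title, and 2 that equal means of other columns (tolerance 1e-06) were left out, leaving 32 arrays in 10 groups. Of the probe sets, 10833 had 1 symbol, 396 several and 1193 none, and 66 were controls. For 10817 the symbol was updated with the GRCm38.p6 gene table. MEF minus SGM was fitted with limma 3.58.1 (R 4.3.3, lmFit and eBayes) on all 32 arrays, which share 1 spread (22 residual degrees of freedom), with Benjamini-Hochberg adjustment over 10833 probe sets. A ± after a difference is its standard error. It and the p-value rest on the spread within all 10 groups, not within MEF and SGM alone. Hbb-y had a standard error of 0.36 with SDs of 0.13 in MEF and 0.06 in SGM. Arg1 had 0.34 with SDs of 0.11 in MEF and 1.44 in SGM. The procedure was tested on simulated data. Members, gene lists and tests were chosen with earlier results of these data known. Genes named are the largest changes overall and per list, list markers, genes above 16 and those with the largest SD. Others named as members of a list were chosen after their values were seen. Alternatives covered scaling, probe sets, arrays, weights and a replicate block. The number of arrays limits the precision.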

Additional observations from a re-analysis of the deposited data

Results flagged for a closer look

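Each of 222 named genes was examined in both groups for an array that stood apart, by its gap to the nearest other array as a share of the range of the group (Dixon's test at the 95% level). In 33 of 444 such groups an array stood apart, and chance alone gives about 1 in 20. Some of these genes were named for their large SD and all share the same arrays, so the count was not tested against chance. The values below are log2 signals of the array that stood apart, with the nearest other array of its group in brackets.

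MEF replicate 1 was high in Kitl at 9.010 (8.268), Lum at 11.742 (10.738), Pdgfra at 11.097 (10.494) and Sesn1 at 8.321 (7.789). MEF replicate 1 was low in Ramp2 at 6.812 (6.981). MEF replicate 2 was high in Acta2 at 16.736 (16.581) and Snai2 at 12.003 (11.767). MEF replicate 2 was low in Pou5f1 at 5.947 (6.182). MEF replicate 3 was high in Mcm5 at 7.679 (7.263). MEF replicate 5 was high in P4hb at 10.688 (10.561) and Slc4a1 at 6.708 (6.517). MEF replicate 5 was low in F3 at 11.327 (11.672) and Hsd17b7 at 7.970 (8.253). MEF replicate 6 was high in Cd81 at 13.885 (13.563), Mgp at 14.227 (14.016), Mt1 at 10.680 (10.198) and S100a6 at 16.871 (16.519). MEF replicate 6 was low in Col5a2 at 16.427 (16.725), Hmgb3 at 8.359 (8.620) and Sdc2 at 11.830 (12.074). SGM replicate 1 was high in Tbx15 at 5.969 (5.746). SGM replicate 1 was low in Gata3 at 6.116 (6.203) and Hemgn at 7.114 (8.731). SGM replicate 2 was high in Hoxa11 at 7.294 (6.630) and Meox2 at 5.800 (4.043). SGM replicate 2 was low in Cdkn1a at 8.187 (8.866), Nr5a1 at 10.156 (10.333) and Pax8 at 7.684 (7.940). SGM replicate 3 was high in Ccnd2 at 8.059 (7.549). SGM replicate 4 was high in Cd9 at 8.242 (7.845) and Cldn7 at 7.220 (6.549). SGM replicate 4 was low in Emcn at 8.563 (8.884) and Zfpm2 at 4.939 (5.068). The widest gaps were those of Meox2 on SGM replicate 2 and Hemgn on SGM replicate 1. No cause was tested.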

How the results depend on the processing

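Of 897 recomputed counts over 39 results, 869 stayed within 1.5 times the reported count, 28 did not and none reversed. Probe sets called higher numbered 2074 to 2216 and lower 2431 to 2792 with 1 replicate left out, against 2263 and 2726 with all. Each array centred on its median gave 2718 higher and 2217 lower, so the split of calls depends on the centring (55.1% higher, against 45.4%). Array weights gave 2554 and 3557. The replicate numbers did not pair the samples (correlations of deviations -0.55, 0.19, 0.11 and 0.08), and a replicate block gave 2105 and 2601. With only probe sets above the median signal, which tests fewer genes, 1651 probe sets were called lower, 402 of them at least 2-fold. Members called higher were then 9 inflammatory, 13 interferon and 7 limb genes. Members called lower were then 21 replication, 11 gonad, 2 mesonephric, 6 epithelial, 5 HOX, 3 muscle, 1 neural, 12 erythroid, 5 endothelial, 3 macrophage and 5 imprinted genes. With array weights 10 muscle and 11 neural genes were lower. With arrays centred on their medians 6 macrophage, 11 oxidative phosphorylation and 5 ribosomal genes were lower. After quantile normalization 5 imprinted genes were higher and 16 ribosomal genes lower. With only plain probe sets (suffix _at alone) 11 oxidative phosphorylation genes were lower. Without SGM replicates 1 and 4, a choice made after seeing the data, 5 macrophage, 11 oxidative phosphorylation, 6 antioxidant and 4 ribosomal genes were lower. Signs turned after quantile normalization for App (-0.21), Col1a2 (-0.13), Col3a1 (-0.18) and Cpe (-0.13), for Bmp1 with the mean of its probe sets (0.19) and for Eif2s3y without SGM replicates 1 and 4 (-0.13), none of them called then. Apart from the fewer genes or arrays of the settings that say so, the cause was not tested. The files hold no detection calls, so the limit of detection of dim genes is unknown.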
